A study of Mus musculus with 16 samples.

Results

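Actin and the proteins that bind it were followed through 10 genes in the dorsal root ganglia (DRGs) of mice with and without nerve injury and desipramine (DMI). The genes were Actb, Actg1, Pfn1, Cfl1, Tmsb4x, Tmsb10, Arpc1b, Arpc2, Capg and Coro1a, found by their Ensembl identifiers among the 52636 genes counted, and all 10 passed the filter on low counts. They were chosen by their CPM (the reads of a gene, scaled to a common total of reads on genes per library) across the 4 groups, so their levels and differences between groups are a description and carry no test. Bulk RNA was sequenced from the L3-6 DRGs of 16 male C57Bl6/J mice aged 3 to 4 months, with 1 mouse per library and 4 mice in each group. SNI-Saline and SNI-DMI mice had tibial spared nerve injury (SNI), in which branches of the sciatic nerve are cut and the rest left intact, and Sham-Saline and Sham-DMI mice had sham surgery. DMI, a tricyclic antidepressant that blocks noradrenaline reuptake, was injected i.p. at 15 mg/kg 2 times a day for 3 weeks and saline on the same schedule. Per the labels and the study's abstract and results, treatment began 4 weeks after surgery, while the study's methods give 4 months. No group was untouched by surgery and injections, the mice were all male, and the ganglia of several lumbar levels were joined, so that injured and spared neurons lie in the same library.

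Reads on genes numbered 41194238 to 73920332 per library, and the lowest count of any of the 10 genes was 1822. The labels call the tissue spinal cord and the cell type DRG. A list of 12 sensory neuron markers summed to 12200 to 15500 CPM over the 16 libraries, and 8 markers of spinal cord glia and motor neurons to 15.9 to 33.4 CPM, with no marker of either list at 0 throughout a group. Library numbers were 17 to 24 for DMI, 33 to 36 for SNI-Saline and 37 to 40 for Sham-Saline, so the order of the libraries cannot be told apart from drug or injury. In bulk tissue, fewer cells of a type and less RNA per cell cannot be told apart.

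Actin exists as single subunits and as filaments, and cells shift it between these states. Thymosins hold subunits in reserve, profilin passes them to growing filament ends, cofilin cuts old filaments, the Arp2/3 complex starts branches, capping proteins close ends and coronins act on branched filaments. In sensory neurons this turnover drives growth cones, and in glia and immune cells it drives wrapping, crawling and engulfment. The genes of actins and several partners are classic targets of serum response factor (SRF), a transcription factor whose cofactors sense free actin.

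The members hold a pair of actins and a pair of thymosins, and the start of their coding sequence is shown to let a reader see how far the genes of a pair differ at the length of a read. The first 90 coding bases of each pair are given below, from the GENCODE M21 transcripts on GRCm38, with the bases that differ within the pair in capitals.
Actb: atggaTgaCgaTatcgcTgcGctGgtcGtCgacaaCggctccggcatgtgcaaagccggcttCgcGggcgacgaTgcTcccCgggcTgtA
Actg1: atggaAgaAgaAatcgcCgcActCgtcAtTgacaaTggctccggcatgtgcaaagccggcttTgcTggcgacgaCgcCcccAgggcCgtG
Tmsb4x: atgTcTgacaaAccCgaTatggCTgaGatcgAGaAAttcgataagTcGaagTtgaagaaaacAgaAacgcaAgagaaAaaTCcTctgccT
Tmsb10: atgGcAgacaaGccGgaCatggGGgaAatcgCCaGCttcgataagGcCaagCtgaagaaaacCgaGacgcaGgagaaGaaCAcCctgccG
Actb and Actg1, the genes of cytoplasmic beta and gamma actin, differed at 16 of these 90 bases. Over their 1125 coding bases 997 were identical (88.6%). Tmsb4x and Tmsb10, the genes of the thymosins beta 4 and beta 10, differed at 23 of the 90 bases shown and were identical at 92 of 132 coding bases (69.7%).

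How much of each transcript could be counted without doubt was read from windows of 50 bases, the length of a read. For Pfn1, Tmsb4x, Capg and Coro1a no window occurred in a transcript of another gene. In Actg1, 56.7% of the windows did, and 100% of those within the coding sequence, mostly in the processed pseudogenes Gm12715 (973 windows) and Gm8399 (677 windows). Shared windows made up 43.5% of Tmsb10, 42.2% of Arpc1b, 23% of Cfl1, 14.2% of Actb and 0.2% of Arpc2. Windows were matched on either strand. For Arpc1b 882 of them lay in Pdap1 and for Cfl1 305 in Snx32, genes that overlap these members and are not copies of them. The counts are whole numbers, and in each library 5.71% to 6.40% of read pairs were listed apart as not uniquely aligned. Reads from shared windows outside these overlaps can thus be missing from a count or fall to a copy. The levels of the genes with such windows, and of Actg1 most, are thus uncertain. Reads were paired, so a shared window need not leave its pair in doubt. Gm12715 itself was listed at 41.9 ± 1.86 CPM in Sham-Saline and 48.3 ± 4.48 CPM in Sham-DMI (SD, n = 4), a log2 difference of 0.20 where that of Actg1 was 0.18. Cfl1 overlaps Snx32, Arpc1b overlaps Pdap1 and Coro1a overlaps Bola2 on the opposite strand. The libraries keep the strand, but whether the counting used it is not given in the sources used here, so these 3 genes are uncertain where they overlap. Actg1 overlaps the microRNA genes Gm23419 and Mir6935 on its own strand, where the strand cannot tell the genes apart.

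RefSeq promoter sequences on GRCm38.p6 were found for 9 of the 10 genes (12 start sites), all but Actb. The 250 bases before each start were searched on both strands, and the Actg1 promoter is shown because it alone held a CArG box, the motif bound by SRF. It lies at chr11:120348543-120348625 on the minus strand, with the motif in capitals, its first base 90 bases before the RefSeq start.
Actg1 promoter: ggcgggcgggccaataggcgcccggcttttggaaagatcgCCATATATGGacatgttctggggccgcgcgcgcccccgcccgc
Of all 32851 mouse promoters of that length, 1.47% held a CArG box. CCAAT was found before Actg1 and Cfl1 and in 33.85% of all promoters. GGGCGG stood before Actg1, Pfn1, Tmsb4x, Tmsb10, Arpc1b, Arpc2 and Coro1a and in 32.74% of all promoters. TATAAA (12.37% of all promoters) and GAGGAAGT (2.44%) were found before none of the 9. A CArG box can itself contain TATAAA or CCAAT, which the one shown does not. The matches are letters in a window and not tested sites. Annotated exons covered part of the 250 bases at several starts. These were 216 and 160 bases at 2 starts of Tmsb10, 156 at Pfn1, 115 at Actg1, 105 at Capg and 97 at Tmsb4x. Fewer were covered at Arpc2 (76), a start of Coro1a (43) and Arpc1b (41). A motif missing there says nothing about sequence further upstream.

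Compared per kilobase of transcript, levels in Sham-Saline spanned a wide range. Tmsb4x was the most abundant at 798 ± 51.6 CPM per kb, followed by Actb at 386 ± 18.4, Tmsb10 at 315 ± 14.2, Cfl1 at 272 ± 20.1 and Pfn1 at 202 ± 9.67 (SD, n = 4). Lower levels were seen for Actg1 at 161 ± 6.45, Arpc2 at 127 ± 2.7, Arpc1b at 80.9 ± 1.6, Coro1a at 79.5 ± 3.57 and Capg at 24.9 ± 3.76 CPM per kb. The neighbours Arpc1b and Coro1a did not differ beyond their spread. Lengths were those of the longest principal transcript, 3105 bases for Arpc1b and 2354 for Cfl1, and a shorter form would raise a gene's level. By these lengths the thymosins, Actb, Cfl1 and Pfn1 stood ahead of Actg1, the subunits of Arp2/3, Coro1a and the capping protein. Shared windows, 56.7% of those of Actg1 and 14.2% of those of Actb, were not taken out of the lengths. The place of Actg1 is thus uncertain.

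Actb (chr5:142903115-142906754, minus strand) was the member with the clearest split by drug. It was at 785, 733, 700.4 and 749 CPM in Sham-Saline replicates 1 to 4 and at 765, 716, 687 and 832 CPM in SNI-Saline. With DMI it was at 870.2, 883, 978 and 899.7 CPM in Sham-DMI and at 1000.3, 937, 989.9 and 995 CPM in SNI-DMI. All 8 DMI libraries lay above all 8 saline libraries, which held for 121 of the 21371 genes tested (0.566%) and for no other member. Group means were 742 ± 35.4, 749.9 ± 63.4, 908 ± 48.4 and 980.4 ± 29.4 CPM (SD, n = 4), and both saline groups differed by less than their spread. In log2 terms Actb was 0.39 ± 0.06 (SE) higher with DMI under SNI, 0.29 ± 0.06 higher with DMI under sham surgery and 0.02 ± 0.06 higher with injury under saline.

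Actg1 (chr11:120345690-120348542, minus strand) differed less. In saline it was at 331, 301, 318 and 310.1 CPM after sham surgery and at 356, 352, 322 and 333 CPM after SNI. In DMI it was at 338, 338, 403 and 347 CPM after sham surgery and at 365, 339, 378 and 374 CPM after SNI. Sham-DMI lay wholly above Sham-Saline, while SNI-DMI overlapped both SNI-Saline and Sham-DMI. Its log2 difference with DMI was 0.18 ± 0.06 (SE) under sham surgery and 0.10 ± 0.06 under SNI, and that of injury under saline was 0.11 ± 0.06.

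Pfn1 (chr11:70651850-70654644, minus strand), which encodes the profilin that feeds subunits to filament ends, was lowest in Sham-Saline and highest in SNI-DMI. It was at 166, 180.4, 168 and 182 CPM in Sham-Saline and at 191, 199.8, 174 and 194 CPM in SNI-Saline. With DMI it was at 226, 192, 210.2 and 216 CPM after sham surgery and at 227, 228, 227 and 243 CPM after SNI. SNI-DMI lay above each of the other groups without overlap, and Sham-DMI above Sham-Saline. The log2 difference with DMI was 0.29 ± 0.06 (SE) under SNI and 0.28 ± 0.06 under sham surgery, and with injury 0.12 ± 0.06 under saline and 0.13 ± 0.06 under DMI.

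Cfl1 (chr19:5490455-5495201, plus strand) encodes the filament-severing cofilin of non-muscle cells. It was at 706, 639, 601 and 612 CPM in Sham-Saline and at 764, 727, 688 and 714 CPM in SNI-Saline. With DMI it was at 762, 717, 834 and 786.5 CPM after sham surgery and at 784, 759, 822 and 795 CPM after SNI. Sham-DMI lay wholly above Sham-Saline, replicate 1 of Sham-Saline reached into SNI-Saline, and the 3 other groups overlapped one another. The log2 difference was 0.18 ± 0.06 (SE) with injury under saline, 0.28 ± 0.06 with DMI under sham surgery and 0.13 ± 0.06 with DMI under SNI.

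Both thymosins moved together across the libraries. Tmsb4x (chrX:167207093-167209315, minus strand) was at 609, 642, 558 and 642 CPM in Sham-Saline and at 690.2, 689.5, 637 and 668 CPM in SNI-Saline. It was at 774, 622, 768 and 657 CPM in Sham-DMI and at 735, 697, 740.2 and 691 CPM in SNI-DMI. Sham-DMI was split, with replicates 2 and 4 near the saline groups, and SNI-DMI lay just above SNI-Saline. Tmsb10 (chr6:72957347-72958748, minus strand) was at 214, 226, 205 and 224 CPM in Sham-Saline and at 272, 276, 228 and 247 CPM in SNI-Saline. It was at 305, 233, 299.7 and 245 CPM in Sham-DMI and at 305, 287, 293 and 286 CPM in SNI-DMI. The same 2 Sham-DMI libraries were the low ones, and Sham-Saline lay below each other group without overlap. The log2 difference of Tmsb10 was 0.24 ± 0.08 (SE) with injury, 0.32 ± 0.08 with DMI under sham surgery and 0.19 ± 0.08 with DMI under SNI, against 0.13, 0.20 and 0.09 (SE 0.07 each) for Tmsb4x. Over the 16 libraries the log2 CPM of both thymosins had a Pearson r of 0.946, and 0.927 once group means were removed.

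Of the Arp2/3 subunits, Arpc1b (chr5:145114215-145130705, plus strand) was lowest in Sham-Saline, and Arpc2 (chr1:74236084-74268209, plus strand) was the steadiest member. Arpc1b was at 249, 258, 246 and 252 CPM in Sham-Saline and at 288, 303, 303 and 279 CPM in SNI-Saline. It was at 272, 270.3, 297 and 288 CPM in Sham-DMI and at 302, 297, 281 and 324 CPM in SNI-DMI. Sham-Saline lay below all other libraries, and the rest overlapped. Its log2 difference was 0.22 ± 0.05 (SE) with injury under saline, 0.17 ± 0.05 with DMI under sham surgery and 0.04 ± 0.05 with DMI under SNI. Under saline, Arpc2 lay between 179 and 188 CPM after sham surgery and between 186 and 200.5 CPM after SNI. Under DMI its limits were 186 and 192 CPM after sham surgery and 188 and 199.6 CPM after SNI. Sham-Saline ended just below the lowest SNI-DMI library, and all other ranges overlapped. Its log2 differences in the 4 comparisons were between 0.002 and 0.08 with an SE of 0.04.

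Capg (chr6:72544391-72562983, plus strand), the gene of a protein that caps filament ends, was the least abundant member and the most variable. It was at 33.2, 41.0, 36.6 and 28.5 CPM in Sham-Saline and at 40.6, 46.1, 46.9 and 47.8 CPM in SNI-Saline. It was at 37.6, 30.1, 45.5 and 51.0 CPM in Sham-DMI and at 47.4, 41.1, 41.9 and 48.4 CPM in SNI-DMI. Sham-Saline lay just below SNI-DMI (highest 41.0 and lowest 41.1 CPM), all other groups overlapped, and Sham-DMI reached over nearly the whole span. The log2 difference was 0.38 ± 0.13 (SE) with injury under saline and -0.02 ± 0.13 with DMI under SNI.

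Coro1a (chr7:126699773-126707787, minus strand), a coronin best known from leukocytes, differed more with DMI than its groups spread, and less with injury. It was at 138, 143, 131 and 145 CPM in Sham-Saline and at 152, 159.5, 132 and 136 CPM in SNI-Saline. It was at 177, 155, 173 and 153 CPM in Sham-DMI and at 166, 173, 156 and 156 CPM in SNI-DMI. Sham-DMI lay wholly above Sham-Saline, and SNI-DMI overlapped SNI-Saline. The log2 difference was 0.24 ± 0.07 (SE) with DMI under sham surgery, 0.17 ± 0.07 with DMI under SNI and 0.06 ± 0.07 with injury under saline.

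**Figure D1:**
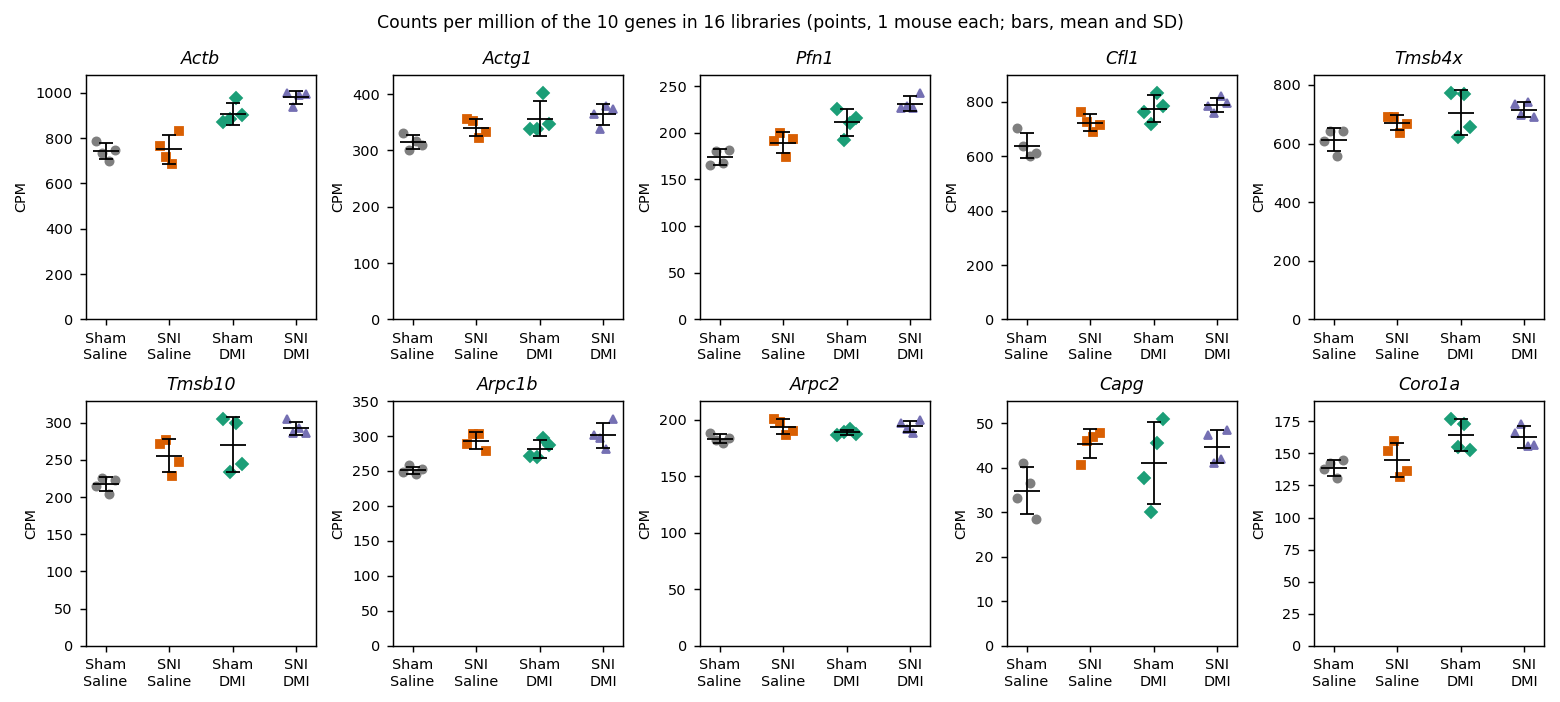
CPM (y axis, from 0) of each of the 10 genes in the 4 groups (x axis). Points are libraries of 1 mouse each, and bars are the mean and SD of 4. All 8 DMI libraries of Actb lie above the 8 saline libraries, Sham-Saline is the lowest group mean for each gene, and Arpc2 stays between 179 and 200.5 CPM.

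Set side by side, the 10 genes were mostly higher than in Sham-Saline in every other group. With injury under saline all 10 had a higher mean, with a median log2 difference of 0.13 against -0.001 over all 21371 genes tested. With DMI under sham surgery all 10 were higher as well, with a median of 0.24 against -0.02 over all genes. With DMI under SNI 9 of 10 were higher (median 0.11, against -0.01 over all genes), and with injury under DMI 9 of 10 (median 0.07, against 0.001). The first 2 of these comparisons share the Sham-Saline libraries, and the comparisons with SNI-Saline share those, so they are not independent of each other.

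As a description, the call used for all genes (an adjusted p under 0.1 in edgeR) was met with injury by 4 members, Cfl1, Tmsb10, Arpc1b and Capg, all higher. Over all genes 5.85% were called higher and 6.18% lower. Members without overlap between both groups were Tmsb10 and Arpc1b, where 7.67% of all genes had such a gap upwards. With DMI under sham surgery 8 members met the call, all but Arpc2 and Capg, where 11.6% of genes were called higher and 11.9% lower. Of these, 7 had no overlap between the groups (8.62% of all genes), Tmsb4x being the exception. With DMI under SNI the call was met by Actb and Pfn1, where 1.32% of genes were called higher and 1.61% lower. Actb, Pfn1, Tmsb4x and Tmsb10 had no overlap there (7.33% of all genes). With injury under DMI no member met the call (0.374% of genes higher and 0.0281% lower), and Pfn1 alone had no overlap (2.89%). No member was called lower in any of the 4 comparisons. Since the members were chosen by these levels, nothing is read from the counts.

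Several of these counts rested on single libraries. With injury, 1 member remained called without Sham-Saline replicate 3 or 4 or without SNI-Saline replicate 1, 2 or 4, and 2 members without Sham-Saline replicate 1. With DMI under SNI, no member and no gene at all was called without replicate 1 or 3 of SNI-Saline, or without replicate 1, 2 or 3 of SNI-DMI, and 1 member without SNI-Saline replicate 4. With DMI under sham surgery, 6 to 9 members were called whichever library was left out. When each library's trends on GC content and exon length were removed, 1 member was called with injury (Arpc1b), 1 with DMI under SNI (Actb) and 7 with DMI under sham surgery. The log2 difference of Pfn1 under SNI was then 0.20 in place of 0.29, that of Tmsb10 0.09 in place of 0.19, and that of Actb 0.37 in place of 0.39. The same removal turned the small injury differences of Actb and Coro1a under saline to -0.05 and -0.02. For injury under DMI, 4 of the 10 genes were then higher in place of 9.

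**Figure D2:**
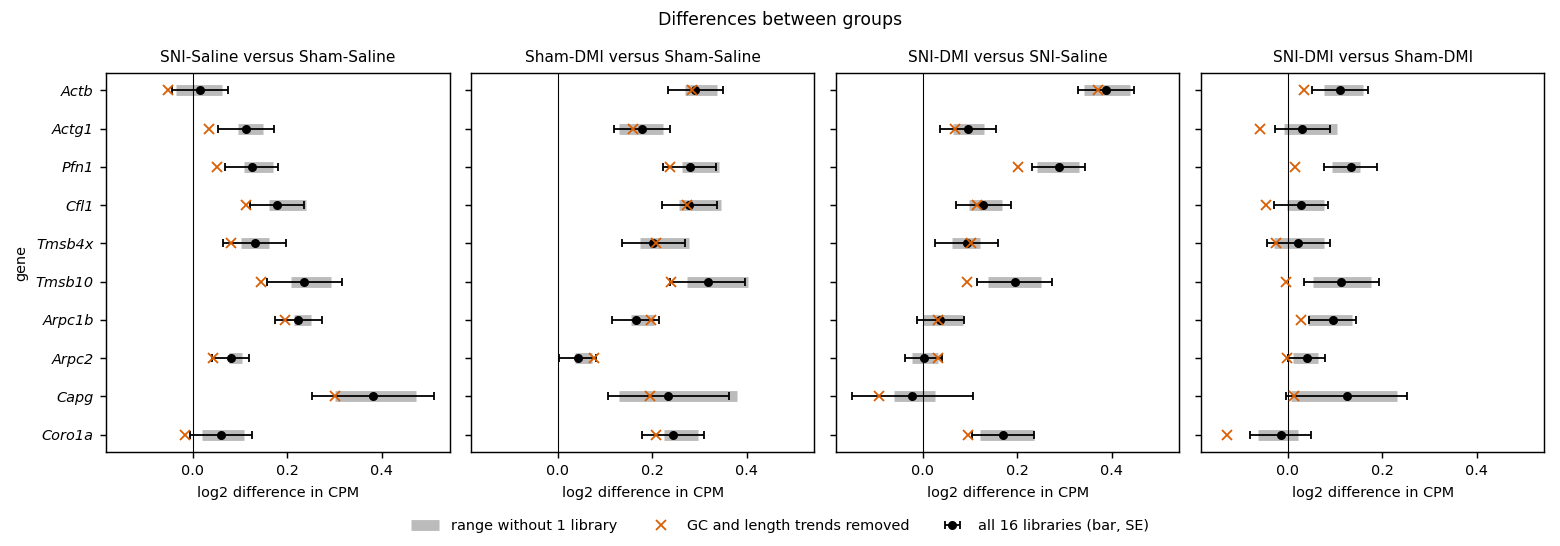
Log2 differences in CPM (x axis) of the 10 genes (y axis) in 4 comparisons. Black points and bars show the estimate and SE from all 16 libraries, grey bands the range when 1 library is left out in turn, and orange crosses the estimate with GC and length trends removed. Actb and Pfn1 lie farthest to the right with DMI under SNI, at 0.39 and 0.29, and with injury under DMI 6 of the crosses lie below 0.

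Whether the DMI difference itself depended on surgery was tested over all genes, and edgeR called 0 genes (0.0%). At an unadjusted p under 0.05 there were 1692 genes, and DESeq2 called 16. Without SNI-Saline replicate 4 edgeR called 1 gene. None of the 10 genes was thus called in the edgeR fit of all 16 libraries.

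Other genes of the actin pathway were taken from 10 lists that hold none of the members, and they carry the edgeR test. Of 142 listed genes 137 could be tested, the other 5 (Actc1, Actbl2, Pfn3, Tmsb15a and Capza3) being too low. With injury 13 rose and 17 fell, with a median log2 difference of -0.02 against -0.001 over all genes. With DMI under sham surgery 12 rose and 26 fell (median -0.06 against -0.02), but with GC and length trends removed 27 rose and 12 fell, where 3344 of all genes were then called higher and 772 lower in place of 2475 and 2535. With DMI under SNI 1 rose and 5 fell, and with injury under DMI 3 rose and none fell. Over all genes 5.85% were called higher and 6.18% lower with injury, and 11.6% and 11.9% with DMI under sham surgery. The shares were 1.32% and 1.61% with DMI under SNI, and 0.374% and 0.0281% with injury under DMI. Calls in both directions were thus found among all genes as well as in these lists. Leaving out 1 library changed the count for injury from 30 to 15, 9 or 17 without Sham-Saline replicate 1, 3 or 4, and to 9, 12 or 19 without SNI-Saline replicate 1, 2 or 4. The 6 calls with DMI under SNI went to 0 without replicate 1, 3 or 4 of SNI-Saline, and without replicate 1, 2 or 3 of SNI-DMI. They became 3 without Sham-Saline replicate 2 or Sham-DMI replicate 3, 2 without Sham-Saline replicate 4, 11 without SNI-Saline replicate 2, and 16 or 12 without Sham-DMI replicate 1 or 2. The 3 calls with injury under DMI became 1 without replicate 2, 3 or 4 of Sham-Saline, replicate 4 of SNI-Saline, replicate 3 of Sham-DMI or replicate 1 or 4 of SNI-DMI, became 5 without Sham-Saline replicate 1 or SNI-DMI replicate 3, and became 8 without Sham-DMI replicate 1.

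The 8 other subunits of Arp2/3 followed Arpc1b in part. Arpc3 rose with injury from 129 ± 3.78 to 151 ± 5.84 CPM (SD, n = 4; log2 difference 0.23 ± 0.06 SE, edgeR adjusted p = 0.0298). It rose with DMI under sham surgery to 158 ± 15 CPM (0.30 ± 0.06, edgeR adjusted p = 0.00323). Arpc1a, the paralog of Arpc1b, rose from 201 ± 6.2 CPM to 229 ± 4.73 CPM with injury and to 239 ± 12.9 CPM with DMI under sham surgery (log2 differences 0.19 ± 0.04 and 0.25 ± 0.04, edgeR adjusted p = 0.0246 and 0.00235). The other 6 were not called in any comparison. The actin-related core subunits Actr2 and Actr3 were at -0.08 ± 0.05 and -0.04 ± 0.04 (log2, SE) with injury. With DMI under sham surgery Arpc4 was at 0.12 ± 0.06, Arpc5 at 0.001 ± 0.05, Arpc5l at 0.09 ± 0.05 and Actr3b at 0.16 ± 0.06. With GC and length trends removed, 6 of the 8 rose with DMI under sham surgery and 1 with injury, where Arpc1a was at 0.12 and no longer called. Of the 21324 genes then tested, 3344 and 527 were called higher.

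Genes that govern filament assembly without Arp2/3 were called in 1 direction only. Of 16 formins and Ena/VASP genes, which extend unbranched filaments, 5 fell with injury, 7 fell with DMI under sham surgery and none rose in either. Over all genes 6.18% and 11.9% were called lower in these comparisons, and 5.85% and 11.6% higher. Fmn2 fell from 50.8 ± 3.08 CPM in Sham-Saline to 40.4 ± 2.84 CPM in SNI-Saline and 38.7 ± 2.41 CPM in Sham-DMI (log2 differences -0.33 and -0.39, SE 0.06, edgeR adjusted p = 0.00778 and 0.00176). Fmnl2 fell as well, by 0.27 and 0.41 on the log2 scale, the second being -0.26 with the trends removed. Diaph2 fell by 0.59 with DMI under sham surgery and by 0.42 with DMI under SNI (edgeR adjusted p = 0.00395 and 0.0959), and was at -0.32 and -0.24 with GC and length trends removed, where the second was no longer called. With GC and length trends removed 2 of the 16 fell with injury, 4 with DMI under sham surgery and none with DMI under SNI. Of the 21324 genes then tested, 519, 772 and 3 were called lower.

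Rhoc was the 1 listed gene called in all 4 comparisons. Under saline it was at 59.3 ± 3.66 CPM after sham surgery and 77.3 ± 1.27 CPM after SNI, and under DMI at 70.3 ± 4.86 and 89.9 ± 4.07 CPM (SD, n = 4). It rose by 0.38 with injury and by 0.25 with DMI under sham surgery (SE 0.06, edgeR adjusted p = 0.00143 and 0.00729). With DMI under SNI it rose by 0.22, and with injury under DMI by 0.355 (edgeR adjusted p = 0.0771 and 0.00672). With GC and length trends removed these 2 were at 0.12, no longer called, and 0.23, and the call with DMI under SNI held in 8 of 16 fits that left out 1 library. It was lost without replicate 4 of Sham-Saline, replicate 1, 3 or 4 of SNI-Saline, or any of the SNI-DMI libraries. Wasl, which switches Arp2/3 on, fell by 0.32 with injury and by 0.37 with DMI under sham surgery (edgeR adjusted p = 0.0151 and 0.00234), and Abi2 of the WAVE complex fell by 0.30 and 0.26. With GC and length trends removed Wasl was at -0.25 and -0.20 and still called, while Abi2 was at -0.18 and -0.05 and was not. Brk1, the smallest WAVE subunit, rose by 0.17 and 0.25 (edgeR adjusted p = 0.0934 and 0.00794), and was at 0.08, no longer called, and 0.20 with the trends removed.

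Of the 19 other tested factors that bind subunits or act in turnover, Twf2 (twinfilin 2) rose with injury (0.21 ± 0.06, edgeR adjusted p = 0.0473) and with DMI under sham surgery (0.31 ± 0.06, edgeR adjusted p = 0.00327). With GC and length trends removed Twf2 was at 0.12 with injury and no longer called, and at 0.26 with DMI under sham surgery. Gmfb fell with DMI under sham surgery and under SNI, by 0.40 and 0.37, but with the trends removed it was at -0.11 and -0.18 and no longer called. Cfl2, the cofilin of muscle and the paralog of Cfl1, fell by 0.25 in both DMI comparisons, but with GC and length trends removed it was at 0.08 under sham surgery. The capping subunit Capza2 fell by 0.16 with DMI under sham surgery and by 0.22 under SNI, and it turned to 0.25 and 0.05 with those trends removed. With the trends removed, the capping and severing list went from 1 risen and 3 fallen to 4 and none with DMI under sham surgery. Over all genes 2475 called higher and 2535 lower became 3344 and 772. Tmod2, which caps pointed ends in neurons, fell by 0.29 with injury and 0.32 with DMI under sham surgery, and was at -0.15 and -0.10 with the trends removed, where the second was no longer called.

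Of the 14 tropomyosin, nonmuscle myosin and ERM genes, the myosin light chains Myl12b and Myl6 both rose by 0.23 with injury (edgeR adjusted p = 0.0174 and 0.0511) and by 0.27 and 0.33 with DMI under sham surgery, while the heavy chain Myh9 fell by 0.21 with injury. Among 25 bundling and crosslinking genes 3 rose and 2 fell with injury (5.85% and 6.18% of all genes). The neuronal Tagln3 rose by 0.24 with injury and 0.30 with DMI under sham surgery. None of 6 other coronins was called in any comparison, and 1 rose with DMI under sham surgery with GC and length trends removed. Srf was not called (log2 differences -0.04 to 0.06, SE 0.09), nor was its actin-sensing cofactor Mrtfa, while Mrtfb fell by 0.17 with injury and 0.23 with DMI under sham surgery. With GC and length trends removed, the injury differences of Myl12b, Myl6, Tagln3, Myh9 and Mrtfb were at 0.16, 0.16, 0.14, -0.14 and -0.12, of which only that of Myl12b was still called. The DMI difference of Mrtfb under sham surgery was then -0.14 and still called. The muscle actin Acta1 was at 0.623 to 16.7 CPM in 15 libraries and at 55.9 CPM in SNI-DMI replicate 2, where 7 skeletal muscle markers summed to 276 CPM.

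**Figure D3:**
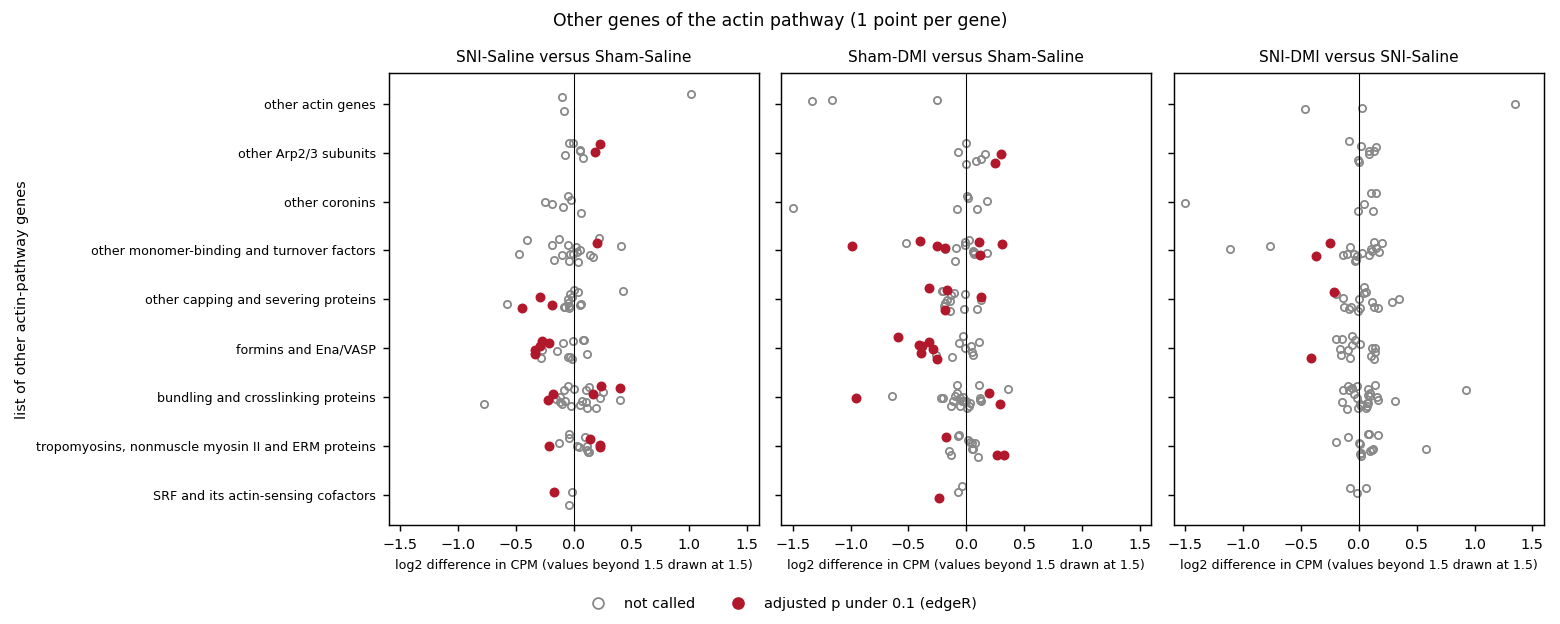
Log2 differences in CPM (x axis, values beyond 1.5 drawn at 1.5) of other actin-pathway genes in 9 lists (y axis), 1 point per gene, for injury under saline and DMI under each surgery. Filled points have an edgeR adjusted p under 0.1. Formins and Ena/VASP genes hold filled points on the left only, 5 with injury and 7 with DMI under sham surgery, and Arp2/3 subunits on the right only, 2 in each. Over all genes 6.18% and 11.9% were called lower in these comparisons, and 5.85% and 11.6% higher.

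The 10 genes also varied together between mice of a group. Over the 16 libraries the 45 pairs had Pearson r from 0.156 to 0.946 (median 0.678), and with group means removed from -0.158 to 0.927 (median 0.294, 42 of 45 above 0). The pairs share libraries and depth, so these values are a description. SNI-Saline replicate 3 was the lowest of its group for 8 of the 10 genes, Sham-Saline replicate 3 for 7 and Sham-DMI replicate 2 for 6.

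The share of read pairs without a feature, a class of the unassigned reads, moved with this in part. Under saline it lay between 8.67% and 9.44% after sham surgery and between 7.73% and 9.14% after SNI. Under DMI its limits were 7.10% and 8.79% after sham surgery, and 7.42% and 8.38% after SNI. SNI-Saline replicate 3 and Sham-DMI replicate 2 had the largest shares of their groups, 9.14% and 8.79%. Sham-Saline replicate 3 did not, at 8.99% against 9.44% in replicate 1, and SNI-DMI replicate 3 had the largest share of its group without the lowest median of the 10 genes (0.28 against 0.25 in replicate 2). The median of the 10 genes relative to the Sham-Saline mean was 0.05 (log2) in SNI-Saline replicate 3 and 0.10 in Sham-DMI replicate 2. It was 0.15 to 0.34 in the others outside Sham-Saline. The part of this share in the differences was not tested.

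**Figure D4:**
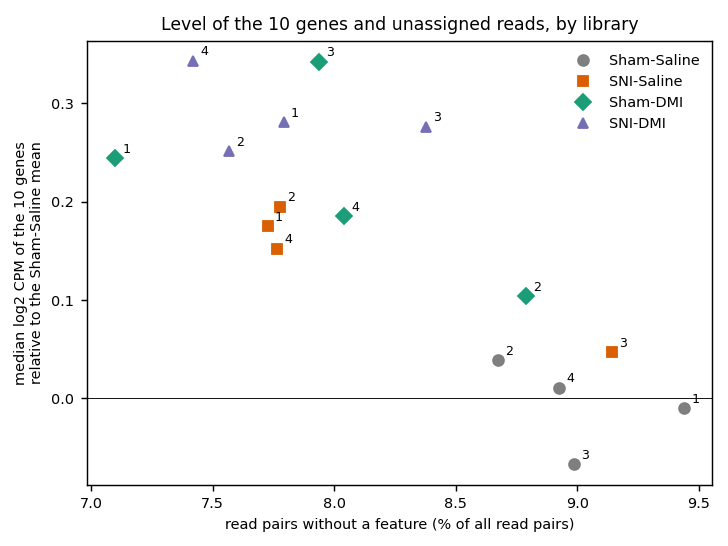
Median log2 CPM of the 10 genes relative to the Sham-Saline mean (y axis) against the percent of read pairs without a feature (x axis), 1 point per library, numbered by replicate. Sham-Saline lies at the lower right, between -0.07 and 0.04, and SNI-Saline replicate 3 and Sham-DMI replicate 2 lie nearest to it.

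Markers of other cells moved with some of the same comparisons. Over all genes 5.85% were called higher with injury, and 11.6% higher and 11.9% lower with DMI under sham surgery. Of 16 macrophage markers 9 rose with injury. Their summed level under saline was 151 to 175 CPM after sham surgery and 192 to 335 CPM after SNI, and under DMI 114 to 162 and 147 to 298 CPM. Macrophages express Arpc1b, Capg and Coro1a, and no macrophage marker was at 0 throughout a group. Of 11 neutrophil markers 8 fell with DMI under sham surgery. Their sums under saline were 11.8 to 44.3 CPM after sham surgery and 18.4 to 55.8 CPM after SNI, and under DMI 4.7 to 20.4 and 5.62 to 15.7 CPM. Of 8 markers of injured sensory neurons 7 rose with injury and 5 with DMI under sham surgery, with sums of 55.3 to 65.0, 245 to 275, 73.4 to 118 and 216 to 387 CPM in the same order of groups. Of 12 sensory neuron markers 4 rose and 1 fell with DMI under sham surgery, with sums of 12200 to 13400 CPM under saline and 13000 to 15500 CPM under DMI. Of 6 satellite glia markers 2 rose there, with sums of 2500 to 2720 CPM under saline and 2730 to 3290 CPM under DMI. In the same comparison 2 of 5 tested B cell markers fell, and 2 of 5 tested markers of spinal cord glia and motor neurons. There 1 marker each of macrophages, endothelium, and pericytes and smooth muscle fell too. With DMI under SNI 2 of 11 neutrophil markers fell and 0 of 16 macrophage markers were called. A marker each of B cells and of spinal cord glia and motor neurons fell there, and a satellite glia marker rose. With injury under DMI 6 of 8 injured sensory neuron markers rose and 0 of 16 macrophage markers were called. Over all genes 1.32% and 0.374% were called higher in these 2 comparisons, and 1.61% and 0.0281% lower. The part of these cells in the levels of the members was not tested.

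Of 15740 genes with a mean of at least 1 CPM, those most like each member over the 16 libraries were ranked by Pearson r of log2 CPM. Prpsap1 (0.923), the chaperone gene Hsp90ab1 (0.916) and Wdr1 (0.911), whose product aids cofilin, were nearest to Actb. Actg1 was nearest to the tubulin gene Tubb4b (0.948), and its own pseudogene Gm12715 ranked 4 (0.911). Cfl1 was nearest to Eef1a1 (0.967) and Tuba1b (0.964), Pfn1 to Slc25a39 (0.969) and Capg to the small heat shock gene Cryab (0.976). Tmsb4x was nearest to S100a10 (0.936), Tmsb10 to Fxyd7 (0.974) and Uchl1 (0.967), and both had the neuronal tubulin regulator Stmn3 among their nearest 5 (0.926 and 0.962). Arpc1b was nearest to the lysosomal protease gene Ctsz (0.917), Arpc2 to Apoe (0.869) and Coro1a to Fsd1 (0.927). These likenesses are over 16 libraries that share group differences and depth.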

How the data were processed

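Per the labels and the study's methods, the authors sequenced stranded mRNA libraries as paired reads of 50 bases and aligned these to mm10. The submitters' processing notes name HISAT2, HTSeq and DESeq2 without versions. The strand setting and annotation release are not given in the sources used here. The deposited values are whole-number counts per Ensembl gene, without normalization. Closing lines of unassigned reads were left out of library sizes, and reads without a feature made up 7.10% to 9.44% of read pairs. Symbols and coordinates came from GENCODE M21 (52489 of 52636 genes matched).

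Counts were analysed with edgeR 4.0.16 in R 4.3.3. Genes were kept by filterByExpr (21371), scaled by TMM and fitted by glmQLFit on all 16 libraries, 1 coefficient per group. Adjusted p-values are Benjamini-Hochberg values over all genes tested, called at 0.1, for group differences judged against the spread between mice. CPM are TMM-scaled, with a prior count of 2 for log2 CPM. The procedure was tested on simulated data. DESeq2 1.42.0, upper-quartile scaling, 2 other count filters (genes with at least 1 count, or at least 10 in every library), the 8 libraries of a contrast, the replicate number as a block, removal of GC and length trends (mgcv 1.9.3, basis size 8, for the 21324 genes with both values) and each library left out in turn were the alternatives. Members, lists and tests were chosen with earlier results of these data known. Named were the members, the other actin genes, Arp2/3 subunits, SRF and its cofactors, up to 3 called genes per list, direction and contrast with the smallest p, and the 5 genes most like each member. The counts of 1 of the 10 lists are not reported here on their own.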

Additional observations from a re-analysis of the deposited data

Results flagged for a closer look

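In 13 of 240 groups of 4 libraries tested, the highest or lowest library stood apart from the other 3 by Dixon's test at 95%, and chance alone marks about 1 group in 20. Among the members, Actb was low in SNI-DMI replicate 2 at 936.8 CPM, Actg1 high in Sham-DMI replicate 3 at 402.7 CPM and Pfn1 high in SNI-DMI replicate 4 at 243.0 CPM. Among other actin genes, Acta1 stood high in Sham-Saline replicate 1 at 7.965 CPM and in SNI-DMI replicate 2 at 55.94 CPM. In the same 2 libraries 7 skeletal muscle markers summed to 49.2 and 276 CPM. Acta2 was high in SNI-Saline replicate 4 at 10.1 CPM, and Actg2 in Sham-Saline replicate 3 at 0.6232 CPM and in Sham-DMI replicate 4 at 0.3153 CPM. Also in SNI-Saline replicate 4, Actr3 was high at 191.7 CPM and Tmsb15b1 at 0.5501 CPM. Arpc3 was low in Sham-Saline replicate 3 at 123.1 CPM, Cfl2 high in SNI-DMI replicate 4 at 162.2 CPM and Srf high in Sham-DMI replicate 1 at 34.29 CPM.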

How the results depend on the processing

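The counts of genes called were the values that moved most with the processing, and the cause was not tested. Injury under saline gave 2571 genes, 1046 with GC and length trends removed and 682 to 3286 with 1 library left out. DMI under SNI gave 626 genes (45% higher), 48 with the trends removed (93.8% higher), 1812 on the 8 libraries alone, 1898 by DESeq2 and 0 to 1842 with 1 library left out. DMI under sham surgery gave 5010 genes and 3286 to 6094 with 1 library left out. Injury under DMI gave 86 genes (93% higher), 310 without a filter, 216 with the trends removed (46.8% higher), 9 on the 8 libraries, 517 by DESeq2 (64% higher) and 17 to 850 with 1 library left out. The difference between the DMI effects gave 0 genes, 16 by DESeq2 and 0 to 1 with 1 library left out.

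Of the other actin-pathway genes, injury gave 30, 14 with the trends removed and 9 to 35 with 1 library left out. DMI under SNI gave 6, 0 with the trends removed, 17 on the 8 libraries, 14 by DESeq2 and 0 to 16 with 1 library left out. DMI under sham surgery gave 38, and 27 to 44 with 1 library left out. Injury under DMI gave 3, 1 with upper-quartile scaling, 7 without a filter, 0 on the 8 libraries, 7 by DESeq2 and 1 to 8 with 1 library left out. Capza2 turned to 0.05 with DMI under SNI and 0.251 with DMI under sham surgery, and Cfl2 to 0.081 with DMI under sham surgery, all with the trends removed.

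With the replicate number as a block, the calls for DMI under SNI were 172 genes and 2 actin-pathway genes, and 1 actin-pathway gene for injury under DMI. The samples share only a number: the deviations of same-numbered libraries correlated at -0.081 to 0.184 (5 of 24 pairs over 0.1), and those of other pairs at -0.248 to 0.169. The lowest count of a member in any library was 1822, so the spread between mice limits their precision.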
